A study of Rattus norvegicus and Mus musculus with 12 samples.

Results

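The ligand and receptor genes of the IL-1, IL-33 and IL-18 pathways were examined in articular chondrocytes of rats and mice before and after stimulation with IL-1β. The 10 genes were chosen by symbol, as the rows named Il1a, Il1b, Il1rn, Il1r1, Il1r2, Il1rap, Il1rl1, Il33, Il18 and Il18rap in the table of each species. All 10 were present among the 19687 rat genes and the 28603 mouse genes, which carry 33806 distinct symbols in all. The chondrocytes came from the articular cartilage of newborn SD rats and mice and were used at passage 1. Those of the rat model group (RM) and the mouse model group (MM) received 20 ng/ml IL-1β for 24 h, and those of the rat and mouse control groups (RC and MC) did not. Each group had 3 libraries. The strain labels of the mouse libraries run from C57BL/6 to C57BL/9, while the methods of the study name C57BL/6 for all mice. The methods call the samples of a group independent without naming the animals or cultures, so P values measure the spread between these samples. That spread was smaller in mouse. Pairs of libraries within a group differed by a chi-square per degree of freedom of 1.86 to 2.40 in mouse. The values were 5.80 to 6.32 in RM and 11.8 to 26.3 in RC. The sizes of P values and the shares of genes that passed are therefore not comparable between the species.

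IL-1α and IL-1β, the products of Il1a and Il1b, bind the receptor encoded by Il1r1, which signals only together with the co-receptor encoded by Il1rap. The pathway is held back at its first step by the antagonist encoded by Il1rn, which occupies the receptor without starting a signal, and by the decoy receptor encoded by Il1r2, which binds the cytokine but lacks the signalling domain. IL-33 is read by ST2, the product of Il1rl1, with the same co-receptor, and a shorter transcript of Il1rl1 encodes a soluble ST2 that captures IL-33. IL-18 is read by the chains encoded by Il18r1 and Il18rap. Chondrocytes respond to IL-1 with matrix-degrading enzymes, which is why the cytokine is used to model osteoarthritis in culture.

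The largest changes among the 10 genes lay in Il1rl1, which fell in rat and rose in mouse, and in Il1rn, which fell in mouse and was close to the detection limit in rat. The mouse log2 fold changes of Il1a (3.00) and Il18rap (2.88) were close in size to that of Il1rn (-3.08). The rat change of Il1rl1 (-1.06) was close in size to those of Il18rap (0.99) and Il1rap (0.90). To show the sequence in front of genes that behaved differently in rat, the 250 bases before the start of transcription are printed for 4 genes, namely Il1rl1, which fell in rat, Il1rap, which rose, Il1r1, which did not pass the test, and Il1rn, which was barely counted. The sequences are those of RefSeq for GRCr8, a rat assembly other than the Rnor_6.0 named in the submitters' processing notes, and 8 of the 10 genes had such a window. Each reads 5′ to 3′ along the gene, at chr9:50203388-50203637 (+) for Il1rl1, chr11:87704262-87704511 (-) for Il1rap, chr9:50034133-50034382 (+) for Il1r1 and chr3:27520072-27520321 (+) for Il1rn. Capitals mark matches to the NF-κB consensus on either strand.
Il1rl1: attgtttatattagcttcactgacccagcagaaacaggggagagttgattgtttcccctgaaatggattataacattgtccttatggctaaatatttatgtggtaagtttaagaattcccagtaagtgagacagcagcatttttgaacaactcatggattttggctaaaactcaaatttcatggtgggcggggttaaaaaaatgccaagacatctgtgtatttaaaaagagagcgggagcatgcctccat
Il1rap: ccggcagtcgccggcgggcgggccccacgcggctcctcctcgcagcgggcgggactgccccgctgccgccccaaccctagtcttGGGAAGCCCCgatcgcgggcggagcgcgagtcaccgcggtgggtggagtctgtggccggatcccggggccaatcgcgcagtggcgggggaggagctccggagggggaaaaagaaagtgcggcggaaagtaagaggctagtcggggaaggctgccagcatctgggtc
Il1r1: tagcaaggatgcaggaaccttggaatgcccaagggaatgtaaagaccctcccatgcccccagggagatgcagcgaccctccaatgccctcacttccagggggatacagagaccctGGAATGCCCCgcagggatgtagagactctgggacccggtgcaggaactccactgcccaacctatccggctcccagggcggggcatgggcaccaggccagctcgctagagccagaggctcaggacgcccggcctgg
Il1rn: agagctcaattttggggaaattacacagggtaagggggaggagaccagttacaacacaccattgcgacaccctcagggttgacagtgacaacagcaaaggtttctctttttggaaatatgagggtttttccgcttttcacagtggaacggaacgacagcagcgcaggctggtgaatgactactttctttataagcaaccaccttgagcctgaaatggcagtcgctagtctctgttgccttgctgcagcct
The windows of Il1rap and Il1r1 each held 1 match to the NF-κB consensus, which began 166 and 135 bases before the start. The windows of Il1rl1 and Il1rn held none, and none of the 4 held the AP-1 motif TGANTCA. Il1rap has a second annotated start, and the same match began 85 bases before that one. Among the windows not printed, that of Il1a held 1 match to the AP-1 motif, which began 12 bases before the start. Of all 33469 windows of the same 250 bases, 6.33% held the NF-κB consensus and 6.34% the AP-1 motif on either strand. A match is a run of letters and was not tested as a binding site.

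The rat libraries held 20169272 to 25903459 counted reads and the mouse libraries 16841580 to 20048322, so that 3 counts in a library stand for 0.116 to 0.178 CPM (counts scaled for the total of the library). Counts and FPKM (the same per kilobase of gene) are given as the authors deposited them. Fold changes come from edgeR's quasi-likelihood test with TMM scaling, and adjusted P values are those of Benjamini and Hochberg over every gene tested in the species. The choice of scaling matters in mouse, where TMM put the median log2 fold change of all genes at -0.02 and library size alone put it at -0.29. In these bulk samples, fewer cells that express a gene and less RNA per cell cannot be told apart. The 12 chondrocyte markers on a list were counted in both cultures, and all fell in both species. Their median log2 fold change was -1.38 in rat and -3.14 in mouse. Col2a1, the main cartilage collagen, still stood at 943 FPKM in RM and 93.7 FPKM in MM. All 18 genes of a list of IL-1 response genes rose in each species. Mmp3, a matrix-degrading enzyme, stood at 817 FPKM in RM and 7967 FPKM in MM. At an adjusted P under 0.05, 18.3% of all rat genes tested were higher in RM and 16.8% lower. The mouse shares were 37.4% and 37.7%. Both lists were drawn up when earlier results from these data were known. Their counts therefore describe the cultures and do not test the response.

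After removal of genes with low counts, 5 of the 10 genes were tested in rat and 8 in mouse. In rat, 3 of the 5 passed an adjusted P of 0.05, with 2 higher and 1 lower in RM, where 35.1% of all 13303 genes tested passed, 18.3% as higher and 16.8% as lower. In mouse, 7 of the 8 passed, with 5 higher and 2 lower in MM, where 75% of all 14774 genes passed, 37.4% as higher and 37.7% as lower. The mouse share is thus near that of all genes. With library size alone, 4 were higher and 3 lower in MM, since Il33 lost its call and Il1r1 passed as lower. Il1a and Il33 passed the filter in mouse only through the MM group. The DEG criteria of the study were read here as an unadjusted P under 0.05, a log2 change of 0.85 or more up or down, and 1 FPKM or more in a library, although the methods name neither the log scale nor an adjustment. By these, the same 3 genes passed in rat, 2 higher and 1 lower, against 8.54% of all genes tested (4.64% higher, 3.9% lower). In mouse 6 passed, all but Il33 of the 7, with 4 higher and 2 lower, against 25.6% of all genes (12.6% higher, 13% lower). The FPKM of control and model did not overlap for 3 of the 5 genes in rat and 7 of the 8 in mouse, where 47.8% and 80.3% of all genes tested did not overlap. The rat call of Il1rap by these criteria rests on single libraries, since its log2 fold change was 0.80 without RC2, 0.838 without RC3 and 0.839 without RM1.

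**Figure D1:**
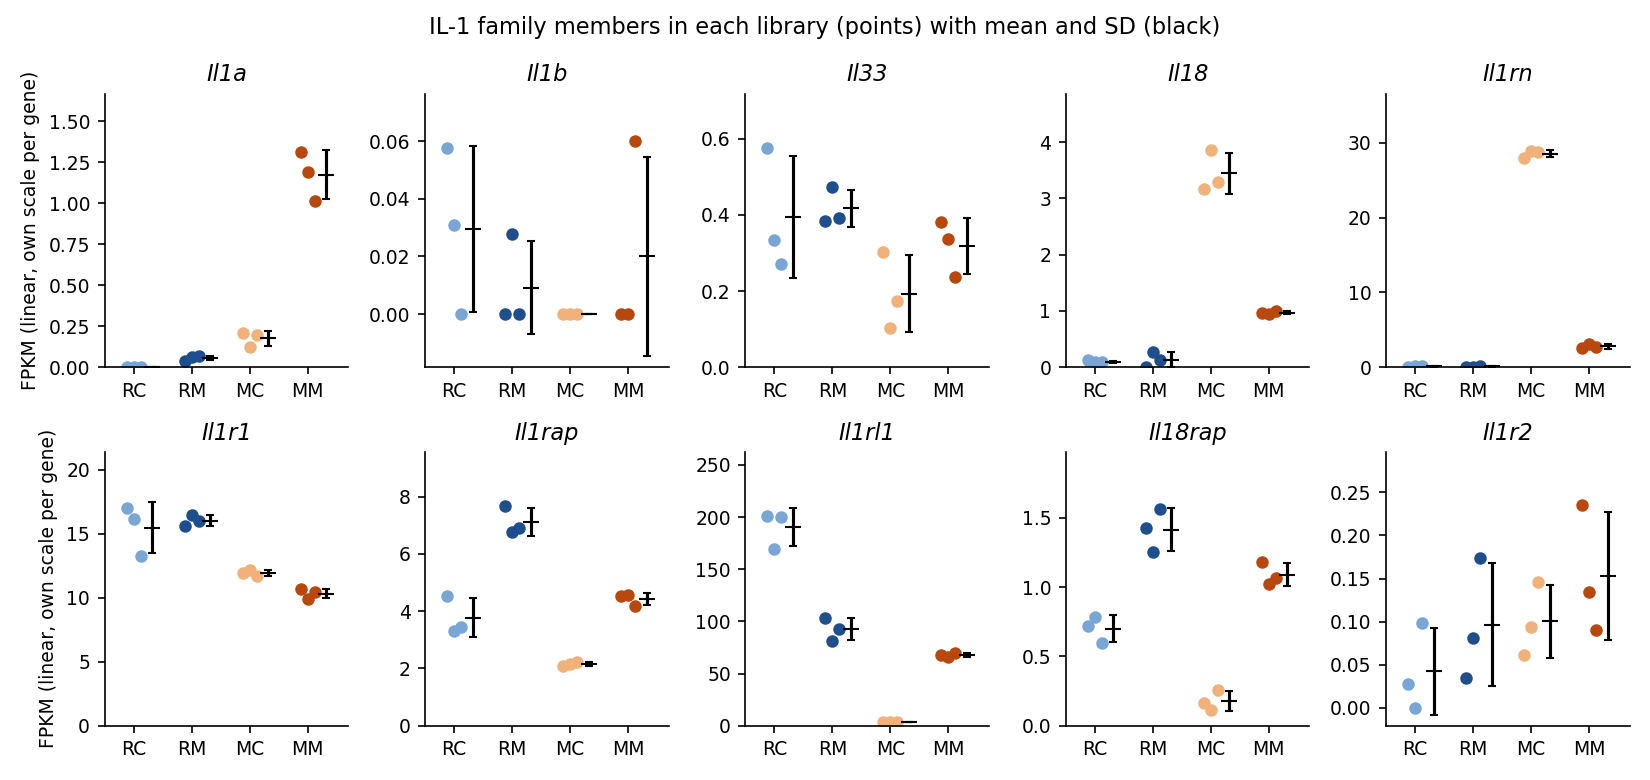
FPKM of the 10 genes, with 1 panel per gene on its own linear scale. Points are the 3 libraries of each group (RC, RM, MC, MM), and the black bars give the mean and SD. Il1rl1 falls from 190.1 to 92.3 FPKM in rat and rises from 3.43 to 67.8 FPKM in mouse, and Il1rn stands at 28.6 FPKM in MC only.

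**Figure D2:**
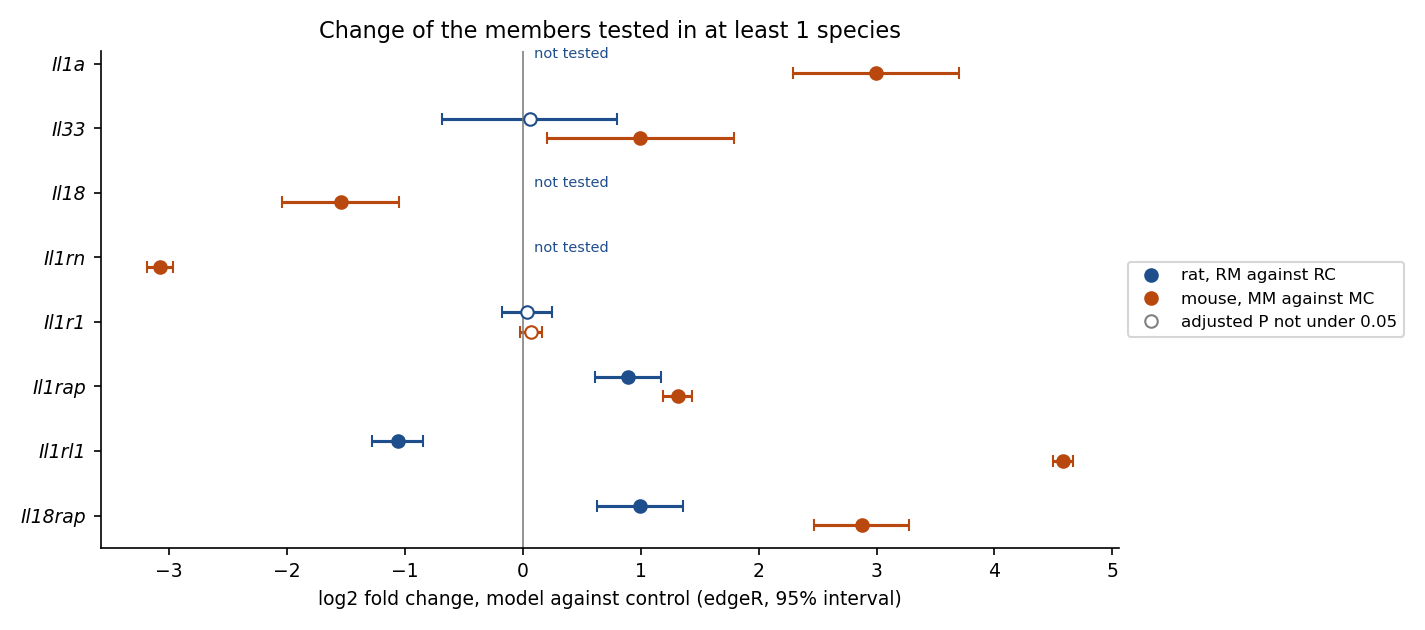
Log2 fold change of model against control for the genes tested in at least 1 species, in rat (blue) and mouse (orange), with 95% intervals from edgeR. Filled points have an adjusted P under 0.05. Il1r1 has open points in both species, and Il1rl1 lies at -1.06 in rat and 4.58 in mouse.

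Il1a, which encodes the agonist IL-1α, had few reads in rat. Its counts were 0, 0 and 0 in RC and 1, 2 and 2 in RM, and it was not tested. With 3 counts over the group set as the limit for RC, the ratio of RM to RC came to 1.65. The 95% counting interval of the ratio begins at 0.906, so a rise was not established. In mouse, the counts of Il1a (ENSMUSG00000027399, GRCm38 chr2:129299610-129309972, minus strand) were 7, 4 and 7 in MC and 52, 46 and 35 in MM. All MM libraries lay above all MC libraries, and the level rose from 0.175 ± 0.0476 to 1.17 ± 0.151 FPKM (SD, n = 3 each). This was a log2 fold change of 3.00 (SE 0.35, adjusted P = 1.76e-11 by edgeR). Even in MM, the gene stayed near 1 FPKM.

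Il1b, which encodes the cytokine that was itself added to the cultures as protein, was barely counted. Its counts were 2, 1 and 0 in RC and 0, 1 and 0 in RM. In mouse they were 0, 0 and 0 in MC and 0, 0 and 2 in MM, at chr2:129364570-129371139 on the minus strand. Both species, stimulated or not, were thus at or under the limit of 3 counts over a group, and no fold is given.

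Il33 encodes a nuclear cytokine that is released from damaged cells and is the ligand of ST2. Its rat counts were 35, 19 and 14 in RC and 19, 30 and 23 in RM, and the groups overlapped. The rat level was 0.393 ± 0.160 FPKM in RC and 0.417 ± 0.0490 FPKM in RM (SD, n = 3 each), with a log2 fold change of 0.06 (95% interval -0.68 to 0.80, adjusted P = 0.912 by edgeR). In mouse, at chr19:29925114-29960718 on the plus strand, the counts were 15, 5 and 9 in MC and 22, 19 and 12 in MM. The groups overlapped here too, at 0.193 ± 0.102 and 0.318 ± 0.0730 FPKM. The log2 fold change of 1.00 (SE 0.40) passed the test by edgeR with an adjusted P of 0.0203 and missed it by DESeq2 with 0.0734. The edgeR call was also lost without MC2 (log2 fold change 0.70, adjusted P = 0.141), MC3 (0.92, 0.0675), MM1 (0.86, 0.10) or MM2 (0.97, 0.0568), so that the mouse difference rests on single libraries.

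Il18 encodes a cytokine that is made as an inactive precursor and cut by caspase-1. It had 3, 2 and 2 counts in RC and 0, 7 and 3 in RM, a ratio of 1.41 (counting interval 0.485 to 4.37), and was not tested. In mouse, at chr9:50554827-50581840 on the plus strand, the counts were 56, 67 and 61 in MC and 20, 19 and 18 in MM. Every MM library lay below every MC library. The level fell from 3.44 ± 0.366 to 0.969 ± 0.0283 FPKM, a log2 fold change of -1.54 (SE 0.25, adjusted P = 1.25e-07 by edgeR).

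Il1rn, the antagonist gene, fell in mouse from a high level and was barely counted in rat. In rat (ENSRNOG00000005871), it had 2, 8 and 4 counts in RC and 2, 3 and 8 in RM, which is 0.10 ± 0.0651 and 0.0897 ± 0.0642 FPKM (SD, n = 3 each). The groups overlapped, and the summed counts stood in a ratio of 0.918 (counting interval 0.397 to 2.11). No induction of the rat antagonist was therefore detectable at this depth, and an increase above 2.11-fold lies outside the interval, which covers counting error only. In mouse (ENSMUSG00000026981, chr2:24336853-24351494, plus strand), the counts were 2654, 2693 and 2863 in MC and 282, 339 and 261 in MM. The corresponding FPKM were 28.0, 28.9 and 28.8 in MC and 2.54, 3.13 and 2.70 in MM. The MC libraries lay close together and far above all MM libraries. The log2 fold change was -3.08 (SE 0.054, 95% interval -3.18 to -2.97, adjusted P = 5.71e-52 by edgeR), or 8.43-fold lower in MM. The deposited FPKM, which carry no TMM scaling, fell 10.2-fold. In order of FPKM among the 14774 genes tested in mouse, Il1rn went from rank 1602 in MC to rank 8467 in MM. FPKM in different species rest on different gene models, so the higher mouse level is a description and was not tested.

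At the level of RNA, antagonist and agonist were compared as the ratio of Il1rn to Il1a per gene length within a library, with 0.5 added to each count. The IL-1β protein added to RM and MM is not part of this ratio. Counts per gene do not separate the annotated coding forms of Il1rn. In MC, Il1rn stood 126-fold, 213-fold and 136-fold above Il1a in the 3 libraries. In MM it stood 1.92-fold, 2.60-fold and 2.63-fold above. The mean log2 ratio went from 7.27 ± 0.41 to 1.24 ± 0.26 (SD, n = 3 each), a difference of -6.03 with an exact permutation P of 0.1 (two-sided), the smallest that 3 libraries against 3 can give. The groups did not overlap, and Il1rn stayed above Il1a in every mouse library. In rat, the mean log2 ratio was 2.51 ± 0.88 in RC and 0.31 ± 0.68 in RM (difference -2.20, exact permutation P = 0.1), but these values rest on 0 to 2 counts of Il1a and on the 0.5 added to them.

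Il1r1, the signalling receptor of IL-1, was well measured in both species and did not pass the test in either with TMM scaling. Its counts were 1673, 1480 and 1104 in RC and 1243, 1684 and 1513 in RM, and the groups overlapped. The level was 15.5 ± 1.97 and 16.0 ± 0.429 FPKM (SD, n = 3 each). By edgeR this was a log2 fold change of 0.03 (SE 0.096, 95% interval -0.18 to 0.25, adjusted P = 0.812). In mouse, at chr1:40225080-40317257, the counts were 1301, 1300 and 1332 in MC and 1357, 1232 and 1159 in MM. The FPKM were 11.9, 12.1 and 11.7 in MC and 10.6, 9.90 and 10.4 in MM, and these did not overlap. With TMM, the log2 fold change was 0.07 (SE 0.046, 95% interval -0.02 to 0.16, adjusted P = 0.149 by edgeR). With library size alone it was -0.21 (adjusted P = 4.62e-05), so that the direction in mouse depends on the scaling, and the median of all mouse genes moved by a like amount.

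Il1r2, the decoy receptor, was at the edge of detection in all groups. Its counts were 1, 0 and 3 in RC, 1, 3 and 6 in RM, 2, 3 and 5 in MC and 9, 5 and 3 in MM, and it was tested in neither species. The ratio of model to control counts was 2.47 in rat (counting interval 0.713 to 10.8) and 1.55 in mouse (0.669 to 3.78). The mouse gene lies at chr1:40074079-40125231, and its only annotated protein has 410 codons against 576 in the longer form of Il1r1. Per length within a library, Il1r1 stood 84.8-fold to 406-fold above Il1r2 in the rat libraries with a count of Il1r2 (RC2 had none, so its ratio is set by the 0.5 added to each count) and 42.8-fold to 156-fold above it in mouse. The log2 ratio of Il1r2 to Il1r1 differed between model and control by 1.16 in rat (exact permutation P = 0.4, two-sided) and by 0.71 in mouse (exact permutation P = 0.2), and the groups overlapped in both. A change of the decoy receptor was not detectable at this depth.

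**Figure D3:**
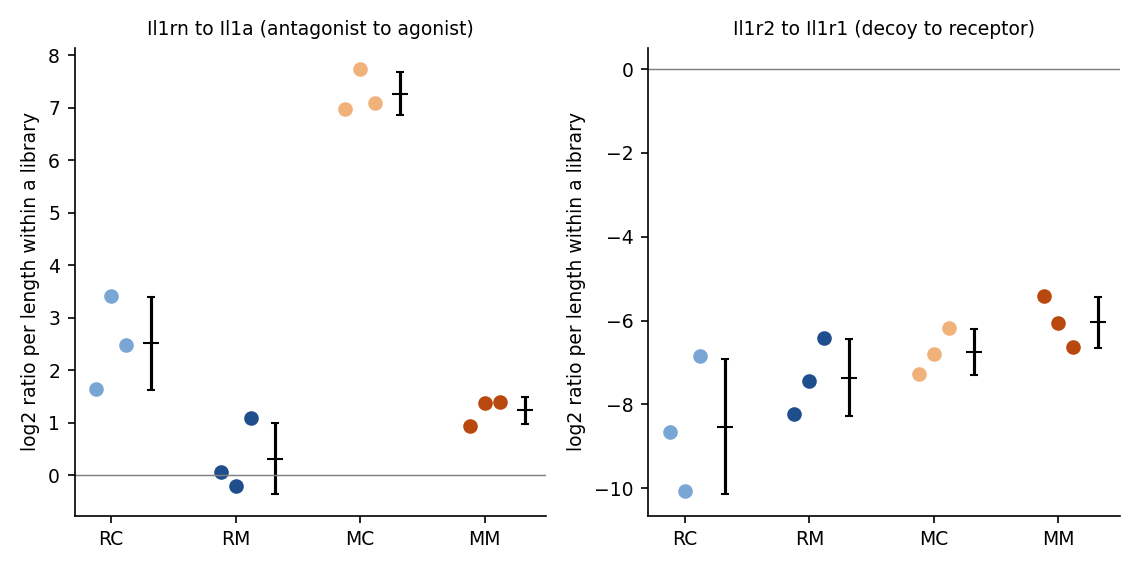
Log2 ratio per gene length within each library for Il1rn to Il1a (left) and Il1r2 to Il1r1 (right). Points are the 3 libraries of each group, and black bars give the mean and SD. The ratio of antagonist to agonist RNA lies at 7.27 in MC and 1.24 in MM, and the decoy ratio overlaps between model and control in both species.

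Il1rap, the co-receptor shared by the receptors of IL-1, IL-33 and IL-36, rose in both species. Its rat FPKM were 4.54, 3.31 and 3.46 in RC and 7.68, 6.75 and 6.90 in RM, and its mouse FPKM were 2.10, 2.14 and 2.24 in MC and 4.51, 4.57 and 4.19 in MM. In neither species did the groups overlap. The log2 fold change was 0.90 in rat (SE 0.13, adjusted P = 0.000351 by edgeR) and 1.31 in mouse (SE 0.062, adjusted P = 1.17e-28 by edgeR). GENCODE M21 annotates coding transcripts of 570, 685, 640 and 360 codons for the mouse gene at chr16:26581704-26730117, and counts per gene do not separate them.

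Il1rl1, which encodes ST2, moved in opposite directions in the 2 species. In rat (ENSRNOG00000014835), it was the most strongly expressed of the 10 genes, with 17736, 13924 and 15017 counts in RC and 7358, 7493 and 7877 in RM. The FPKM were 201, 169 and 200.5 in RC and 103, 81.5 and 92.7 in RM. All RM libraries lay below all RC libraries. Its log2 fold change was -1.06 (SE 0.097, 95% interval -1.27 to -0.84, adjusted P = 1.90e-05 by edgeR), or 2.08-fold lower in RM. Its rank by FPKM among the 13303 genes tested in rat went from 354 in RC to 838 in RM.

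In mouse, Il1rl1 (ENSMUSG00000026069, chr1:40429570-40465415, plus strand) had 398, 393 and 437 counts in MC and 9368, 8870 and 8424 in MM. The FPKM were 3.37, 3.38 and 3.53 in MC and 67.8, 65.8 and 69.9 in MM. Every MM library lay far above every MC library. Its log2 fold change was 4.58 (SE 0.042, 95% interval 4.50 to 4.67, adjusted P = 6.05e-68 by edgeR), or 24.0-fold higher in MM, and the deposited FPKM rose 19.8-fold. Its rank by FPKM went from 8543 in MC to 586 of 14774 in MM. The mean of 92.3 ± 10.7 FPKM in RM thus stood beside 67.8 ± 2.06 FPKM in MM, and 190.1 ± 18.3 in RC beside 3.43 ± 0.0876 in MC (SD, n = 3 each), on gene models of different length. GENCODE M21 annotates 567 codons for the membrane form and 337 for the short form of mouse Il1rl1, and which of these was counted cannot be told from counts per gene.

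Whether a gene responded differently in the 2 species was tested in a joint fit of 10912 genes that share a symbol and were tested in both, as the log2 fold change in mouse minus that in rat. Of the 5 genes of the pathway in that fit, 3 passed an adjusted P of 0.05, all with the larger value in mouse, and 63.8% of all genes in the fit passed, 31.4% with the larger value in mouse and 32.3% in rat. The change of Il1rl1 was 5.64 higher in mouse (SE 0.12, 95% interval 5.39 to 5.89, adjusted P = 1.10e-15 by edgeR). Of the shared genes, 5.18% passed the test as lower in rat and higher in mouse, as Il1rl1 did, and 9.28% as higher in both, as Il1rap and Il18rap did. The change of Il1rap was 0.42 higher in mouse (SE 0.14, adjusted P = 0.0153), which library size alone reduced to 0.13 (adjusted P = 0.433). The change of Il1r1 differed by 0.04 (95% interval -0.19 to 0.27, adjusted P = 0.778), and that of Il33 by 0.95 (95% interval -0.18 to 2.07, adjusted P = 0.130). The Il33 difference passed the test without MC1, at 1.41 (adjusted P = 0.0440). Without the filter on low counts, Il1rn also entered the fit, with a change lower by 2.93 in mouse on the log2 scale (SE 0.62, adjusted P = 0.000495), beside the 27 rat reads described above.

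**Figure D4:**
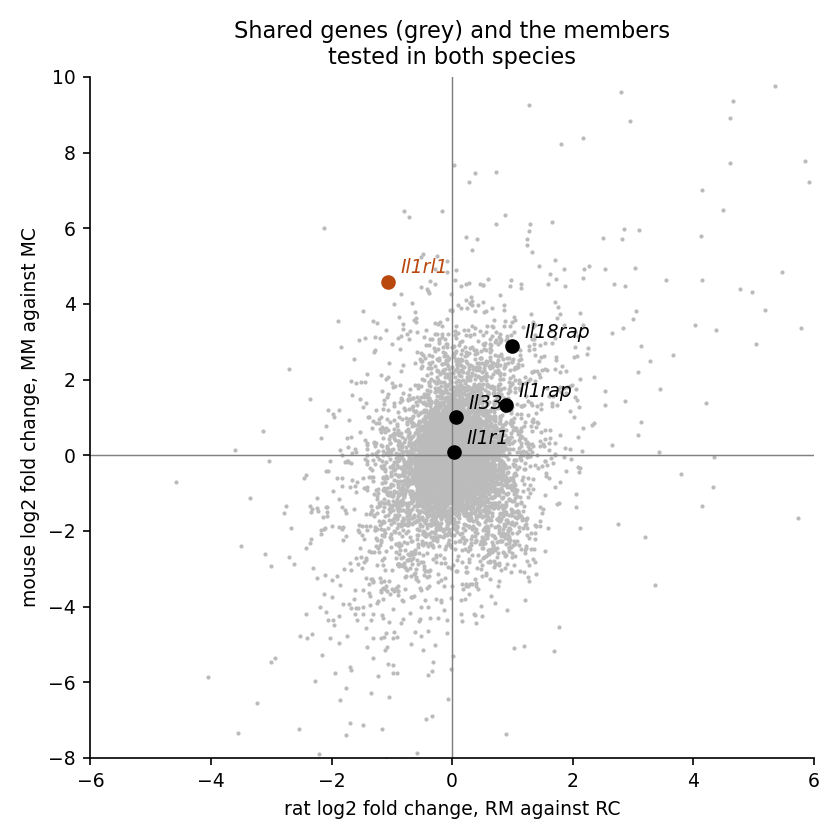
Log2 fold change in rat (horizontal) against that in mouse (vertical) for the 10912 genes shared by symbol and tested in both species, of which 14 lie outside the axes. Labelled points are the 5 pathway genes among them. Il1rl1 (orange) lies at -1.06 and 4.58, and Il1rap and Il18rap lie above 0 on both axes.

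The genes whose pair of changes lay nearest to that of Il1rl1 were Atf3, a transcription factor of the stress response, Slc7a11, the cystine transporter, and Rnf152, a ubiquitin ligase. Their Euclidean distances from Il1rl1 were 0.388, 0.552 and 0.607 on the log2 scale, with 15 of the 10912 shared genes within 1. Atf3 fell by 0.85 in rat and rose by 4.26 in mouse. Slc7a11 fell by 0.52 in rat and rose by 4.45 in mouse, and Rnf152, at 3.98 in mouse, did not pass the test in rat (adjusted P = 0.161 by edgeR). Il1rn was not compared in this way, since it was not tested in rat.

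Il18rap, the accessory chain of the IL-18 receptor, rose in both species from a low level. Its counts were 95, 97 and 67 in RC and 153, 172 and 199 in RM, and the groups did not overlap. The level went from 0.702 ± 0.0958 to 1.42 ± 0.158 FPKM (SD, n = 3 each), a log2 fold change of 0.99 (SE 0.16, adjusted P = 0.000992 by edgeR). In mouse, the counts were 19, 13 and 31 in MC and 160, 135 and 126 in MM, again without overlap. The mouse level went from 0.178 ± 0.0717 to 1.09 ± 0.0824 FPKM, a log2 fold change of 2.88 (SE 0.20, adjusted P = 4.02e-20 by edgeR). The change was 1.89 higher in mouse than in rat (SE 0.28, 95% interval 1.30 to 2.48, adjusted P = 1.53e-05). Il18r1, which encodes the ligand-binding chain that Il18rap assists, had only 11 counts in MC and 4 in MM, and was not tested in mouse. In rat it had 47 counts in RC and 105 in RM, with a log2 fold change of 1.09 (SE 0.39) that missed the test at an adjusted P of 0.0538 by edgeR.

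The receptor genes form a cluster of 6. On mouse chromosome 1, Il1r2, Il1r1, Il1rl2, Il1rl1, Il18r1 and Il18rap follow in this order on the plus strand over 477.6 kb, and RefSeq gives the same order in rat, with 1 other protein-coding gene between them. The start of Il18r1 (chr1:40465552-40500854) lies 136 bases after the end of Il1rl1, yet the 26662 reads on Il1rl1 in MM stood beside 4 on Il18r1. Il1rl2, which encodes the receptor of the IL-36 cytokines and lies just before Il1rl1, rose by 1.14 on the log2 scale in rat (SE 0.14, adjusted P = 0.000118 by edgeR) and by 0.33 in mouse (SE 0.11, adjusted P = 0.00460), a difference of -0.80 (adjusted P = 0.00194). The mouse call of Il1rl2 was lost with library size alone (0.05, adjusted P = 0.656), while the difference was then -1.10 (adjusted P = 0.000120). Along the cluster, rat and mouse thus differed in the size of the change at Il1rl2 and Il18rap and in its direction at Il1rl1. Whether the strand of the reads was used in counting is not given in the sources used here, so antisense transcription in the cluster cannot be told apart from the genes.

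**Figure D5:**
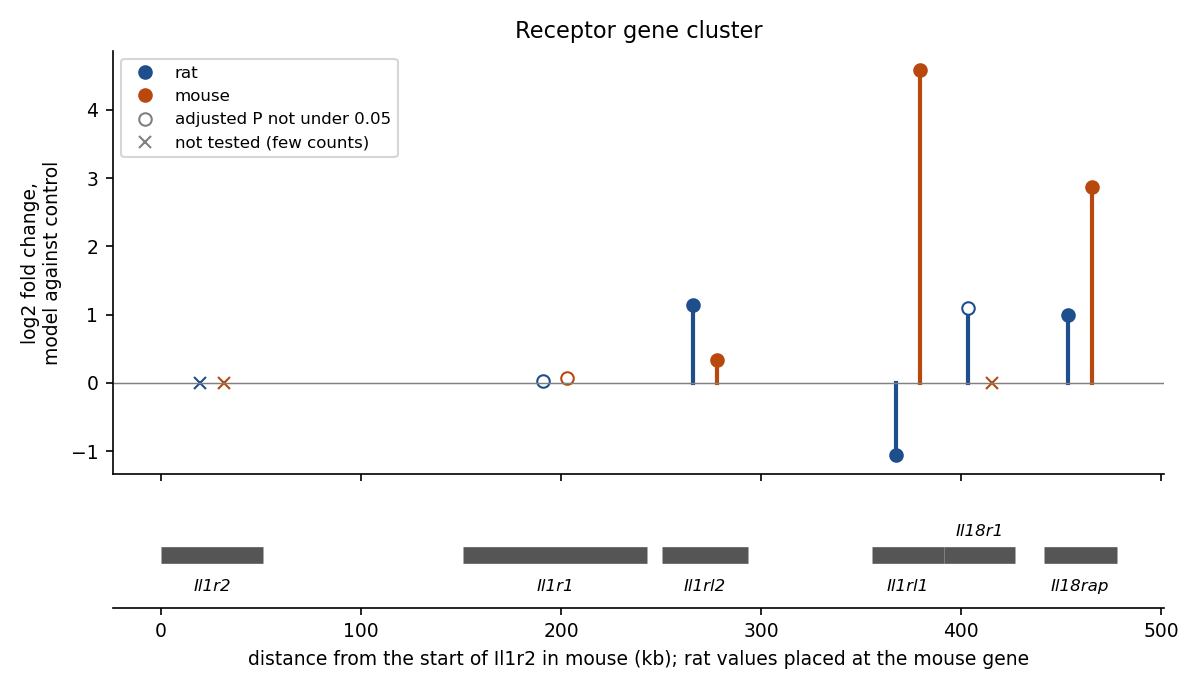
Log2 fold change of the 6 receptor genes (top; rat in blue, mouse in orange) above their positions in mouse, as kb from the start of Il1r2 (bottom). Open points have an adjusted P of 0.05 or more and crosses mark genes with too few counts to test. Il1rl1 falls in rat and rises in mouse, and the crosses are Il1r2 in both species and Il18r1 in mouse.

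Of 15 other genes listed for the family, 9 were in the rat table and 8 in the mouse table. Of the 4 tested in rat, 1 rose and none fell, and of the 5 tested in mouse, 3 rose and 1 fell, or 2 rose and 2 fell with library size alone. Over all genes tested, 35.1% passed in rat and 75% in mouse. Il1f6 and Il1f9, which encode the agonists IL-36α and IL-36γ, were at 0 in all MC libraries. Il1f6 had 22, 31 and 17 counts in MM, at least 21.2-fold higher with 3 counts over the group as the limit, and Il1f9 had 22, 22 and 19, at least 19.1-fold higher. Both passed the filter only through MM. Il1rapl1, a synaptic relative of Il1rap, had 139 counts in MC and 66 in MM (log2 fold change -0.93, adjusted P = 0.00145 by edgeR), and was at 0 in rat. Il18bp, which encodes a soluble protein that captures IL-18, did not pass the test in rat (log2 fold change 0.28, adjusted P = 0.363) or in mouse (-0.36, 0.143), but passed as lower in mouse with library size alone (-0.63, adjusted P = 0.00794). Sigirr, an inhibitory receptor of the family, had 54 counts in RC and 63 in RM (0.18, adjusted P = 0.748) and 10 and 6 in mouse. Il1rapl2 had 10 and 2 counts in rat and 16 and 2 in mouse, Il36b had 1 in RM, and the antagonist gene Il36rn and Il1f10 were at 0 in rat.

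Genes that process or release the cytokines were listed beside them. Of the 8 tested in rat, 2 rose and 3 fell, beside 35.1% of all genes that passed in either direction, and of the 8 tested in mouse, 4 rose and 3 fell, beside 75%. Nlrp3, the sensor of the inflammasome, rose by 1.81 on the log2 scale in rat (adjusted P = 0.000271 by edgeR), and in mouse went from 0 counts in MC to 107 in MM, at least 32.4-fold higher, and passed the filter only through MM. Pycard, on the same list, fell by 3.19 on the log2 scale in mouse, from 214 to 21 counts (adjusted P = 4.16e-14 by edgeR). It did not pass the test in rat (-0.38, adjusted P = 0.117), and the difference between species was -2.81 (adjusted P = 3.48e-06). Casp1, which encodes the enzyme that cuts IL-1β and IL-18, had 9 and 27 counts in rat and 8 and 10 in mouse, and was tested in neither. Of 5 genes that encode proteases or a cofactor of receptor shedding, 2 rose and 1 fell in rat, and 1 rose and 3 fell in mouse. With library size alone, 1 rose and 4 fell in mouse. The shares of all genes that passed were again 35.1% in rat and 75% in mouse. Adam17 rose in both, by 0.69 in rat and 0.47 in mouse (adjusted P = 0.000139 and 4.81e-17), while Bace1 fell by 0.45 in rat and 0.49 in mouse (adjusted P = 0.00202 and 5.02e-14).

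Downstream of the receptors, 17 genes of proximal signalling were tested in each species. In rat, 4 rose and 1 fell, with a median log2 fold change of -0.07 beside 0.01 over all genes. In mouse, 12 rose and 2 fell, with a median of 0.33 beside -0.02, but with library size alone 7 rose and 7 fell, with a median of 0.05 beside -0.29. With TMM, 18.3% of all genes tested rose and 16.8% fell in rat, and 37.4% rose and 37.7% fell in mouse. Irak3, which encodes an inhibitory kinase of the receptor complex, had the smallest P in both. It rose by 0.95 in rat (SE 0.080, adjusted P = 1.04e-05 by edgeR) and by 2.58 in mouse (SE 0.068, adjusted P = 5.79e-42), and the difference of 1.62 passed the test (adjusted P = 8.30e-10). Traf6, an adaptor that carries the signal from the receptor complex, rose from 3.75 to 6.40 FPKM in mouse (adjusted P = 5.39e-23) and missed the test in rat, at 0.17 on the log2 scale.

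Markers of cells that could carry these genes were counted in the same libraries. Mast cells are rich in ST2. Of 4 mast cell markers in the rat table and 3 in the mouse table, the summed level was 1.08 to 1.43 FPKM in RC, 0.431 to 0.494 in RM, 0.311 to 0.376 in MC and 0.00560 to 0.0646 in MM. Kit had 391 counts in RC, 95 in RM, 144 in MC and 7 in MM, Hdc had 35, 30, 9 and 3, and the defining marker Cpa3 had 0 in rat and 1 in each of MC and MM. T and NK cell markers, which go with Il18rap in blood, summed to at most 0.661 FPKM in any library. Of the 8 listed, only 3 were among the rat genes and 4 among the mouse genes. Cd3e, Cd3d and Cd3g were not among the rat genes.

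Macrophage and monocyte markers summed to 20.7 to 25.3 FPKM in RC and 32.8 to 37.7 in RM over 10 genes, and to 7.86 to 8.85 in MC and 34.8 to 37.4 in MM over 12. Of the 7 tested in rat, 3 rose and 2 fell, and of the 5 tested in mouse, 4 rose and none fell, or 3 rose and 1 fell with library size alone. The share of all genes tested that passed was 35.1% in rat and 75% in mouse. Cd14 stood at 12.4 FPKM in RC, 22.7 in RM, 1.87 in MC and 24.1 in MM, and Cd68 at 3.96, 7.63, 3.52 and 8.23. Csf1r, the receptor of a macrophage growth factor, fell from 0.669 to 0.295 FPKM in rat (adjusted P = 0.00269 by edgeR), and Lyz2, a lysozyme, fell by 0.87 on the log2 scale (adjusted P = 0.00851). The leukocyte marker Ptprc had 20 counts in RC, 16 in RM, 3 in MC and 1 in MM, and Itgam was at 0 in mouse. S100a8, a neutrophil marker, went from 7 to 1820 counts in mouse, while Mpo had 2 and 0 and Elane 5 and 1. Epithelial markers were lower in MM than in MC, with a sum over 6 genes of 0.948 to 1.31 FPKM in MC and 0.393 to 0.656 in MM. Cdh1 went from 58 to 4 counts and Epcam from 11 to 0, while Krt14 had 2 and 0 and Krt5 0 and 1. In rat, the same 6 summed to 0.665 to 0.877 FPKM in RC and 0.256 to 0.451 in RM, with Krt18 at a log2 fold change of -1.90 (adjusted P = 0.00650 by edgeR). Endothelial cells are a source of IL-33, and their 6 markers summed to 0.448 to 0.636 FPKM in MC and 0.737 to 0.793 in MM. Vwf rose by 2.18 on the log2 scale in mouse (adjusted P = 2.48e-14 by edgeR), Cdh5 had 2 counts in MC and 29 in MM, and Tek fell by 0.80 (adjusted P = 0.0198). In rat the sum was at most 0.185 FPKM in any library. Of the fibroblast markers, 1 rose and 3 fell of 7 tested in rat, and 3 rose and 3 fell of 6 in mouse, or 1 rose and 4 fell with library size alone. These counts stand beside the same 35.1% and 75% of all genes. Dcn, a small proteoglycan, went from 5.91 to 28.9 FPKM in rat and from 22.9 to 601 FPKM in mouse (adjusted P = 1.85e-07 and 2.66e-78 by edgeR). Dcn was the 1 fibroblast marker that rose in rat. Col1a1, a collagen on the same list, fell from 2164 to 1176 FPKM in rat (adjusted P = 1.03e-05 by edgeR). In mouse, Col1a1 fell from 1887 to 558 FPKM (adjusted P = 2.01e-56 by edgeR). The part of these cells in the results was not tested.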

How the data were processed

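RNA was sequenced from 12 libraries of passage 1 chondrocytes, 3 per group, and the groups (RC, RM, MC, MM) were taken from the treatment labels. The authors deposited, per species, raw counts per gene and FPKM values made from these counts. The submitters' processing notes name HISAT2, HTSeq 0.11.2, GRCm38 and Rnor_6.0. The strand setting of the counting is not given in the sources used here. Gene-level counts merge transcript forms, and FPKM divide by the merged exon length, so levels depend on the gene model.

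The counts were tested with edgeR 4.0.16 under R 4.3.3 (filterByExpr with a minimum count of 10, TMM, glmQLFit and glmQLFTest), separately by species and jointly for the difference between species. Adjusted P values are those of Benjamini and Hochberg over every gene in a fit. A group at 0 was given a limit of 3 counts, and intervals of count ratios are exact at 95%. These cover counting error only. Ratios within a library were compared by exact permutation tests. Alternatives were DESeq2 1.42.0, RLE size factors, library size alone, no filter, limma 3.58.1 on log2(FPKM + 1) and log2(FPKM + 0.1), a replicate block, the DEG criteria of the study and each library left out in turn. Library size alone was also run on the other gene lists, which was chosen after seeing the data. The tests were checked on simulated data.

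The 10 genes and the 14 lists (the 10 genes themselves, the related genes and the cell markers) were chosen with earlier results of these data known. The text names all 10 genes, the other family genes that have a count, up to 4 genes per list and species from those with the smallest P at an adjusted P under 0.05, and markers from those with the highest level or at 0. Not every gene that this rule allows is named. Casp1, Pycard, Ptprc, Mpo, Elane, Epcam, Krt5, Krt14, Hdc and Cdh5, rat Lyz2, and list genes without a call were named after their values were seen. Mouse coordinates and coding lengths are those of GENCODE M21 on GRCm38, whose merged exon lengths equal those behind the FPKM of the 10 genes. Rat sequences are those of RefSeq on GRCr8.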

Additional observations from a re-analysis of the deposited data

Results flagged for a closer look

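The response to IL-1β differed between rat and mouse for 3 of the 5 pathway genes tested in both species, by edgeR's test of the difference itself. Of all 10912 genes in that fit, 63.8% passed, so the count is near the share of all genes. The log2 fold change in mouse minus that in rat was 5.64 for Il1rl1 (-1.06 in rat, 4.58 in mouse, adjusted P = 1.10e-15), 1.89 for Il18rap (0.99 and 2.88, adjusted P = 1.53e-05) and 0.42 for Il1rap (0.90 and 1.31, adjusted P = 0.0153). For Il1rl1 and Il18rap the difference passed the test under all 19 alternatives run, with that of Il1rl1 between 4.99 and 5.72. That of Il18rap lay between 0.32 and 2.24, lowest by limma on log2(FPKM + 1) and at 1.21 on log2(FPKM + 0.1), scales that shrink changes of genes near 1 FPKM. For Il1rap it was lost under 3 of them, which are given with the processing.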

How the results depend on the processing

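The number of pathway genes that passed the test was 3 in rat under all 14 alternatives, 6 or 7 in mouse under 14, and 2 to 4 for the difference between species under 19. With the main settings, 35.1% of all genes tested passed in rat, 75% in mouse and 63.8% for the difference between species. Il1r1 in mouse, at 0.07 with TMM, was -0.21 with library size alone, -0.19 by limma on log2(FPKM + 1) and -0.21 by limma on log2(FPKM + 0.1), each past the threshold (adjusted P = 4.62e-05, 0.00200 and 0.00193). These 3 settings carry no TMM scaling. Its difference between species was then -0.26 with library size alone and -0.26 with log2(FPKM + 0.1) (adjusted P = 0.0433 and 0.0486). The Il1rap difference was lost under the same 3 settings, at 0.13, 0.01 and 0.09 (adjusted P = 0.433, 0.965 and 0.608). Il33 in mouse lost its call under 8 of 13 alternatives. The model minus control difference in the log2 ratio of Il1rn to Il1a lay between -6.18 and -5.80 in mouse and between -2.63 and -1.497 in rat over all alternatives, and that of Il1r2 to Il1r1 between 0.40 and 1.011 in mouse and between 0.39 and 2.00 in rat.

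Replicate numbers recur in each group, but samples with the same number did not deviate together (correlations of 0.024, -0.098 and 0.085 in rat and 0.0012, 0.015 and 0.0048 in mouse). With the replicate block the counts were 3, 7 and 3, and the ratio differences stayed at 1.16, 0.71, -2.20 and -6.03. Depth limits Il1b, Il1r2 and the rat values of Il1a, Il1rn and Il18.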

Other observations

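Among the listed genes that process or release the cytokines, Casp4, Ninj1 and Casp8 also moved in opposite directions in the 2 species. Casp4, which encodes the inflammatory caspase-11, went from 22.4 to 9.29 FPKM in rat (log2 fold change -1.28, adjusted P = 0.000180 by edgeR) and from 0.549 to 3.07 FPKM in mouse (2.77, adjusted P = 6.40e-23), a difference of 4.05 (adjusted P = 2.59e-09). Ninj1, which encodes a protein of plasma membrane rupture, fell by 0.46 in rat (adjusted P = 0.00196) and rose by 0.94 in mouse (adjusted P = 3.17e-31), a difference of 1.40 (adjusted P = 9.42e-10). Casp8 rose by 0.59 in rat (adjusted P = 0.00336) and fell by 0.22 in mouse (adjusted P = 0.0173), a difference of -0.80 (adjusted P = 5.55e-05). Peli2, which encodes a ubiquitin ligase of IL-1 signalling, fell by 0.97 in rat (adjusted P = 0.00372) and rose by 0.57 in mouse (adjusted P = 1.89e-13), a difference of 1.55 (adjusted P = 1.35e-07). With library size alone, these 4 genes kept their directions in both species and the differences passed the test at 3.76, 1.10, -1.10 and 1.25.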
